A study of Rattus norvegicus with 50 samples.

Results

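The genes described here encode acute phase proteins of the liver and the signalling chain through which interleukin-6 (IL-6) acts on them. They were given as 35 gene symbols. For each symbol that stood alone on a probe, the probe with the highest mean over all arrays was used, which gave 33 genes of the 14506 genes measured. Saa4 and Cfb were not measured, because their probes carry several symbols. By role the 33 were 19 acute phase proteins, 4 genes of complement and pattern recognition, 3 other inducible hepatocyte genes, 3 receptor chains and 4 signalling factors.

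The acute phase response is the change in the plasma proteins secreted by hepatocytes after injury, infection or inflammation elsewhere in the body. IL-6 binds its receptor chain Il6r and the shared signal-transducing chain gp130, encoded by Il6st. Oncostatin M, a relative of IL-6, binds Osmr together with the same gp130 chain. JAK kinases at these receptors activate the transcription factor STAT3, which drives many acute phase genes and also Socs3, the inhibitor that closes the loop. IL-1 acts beside IL-6 on some of the same genes, through NF-kB and the C/EBP factors (Cebpb, Cebpd). In the rat, alpha-2-macroglobulin (A2m), some but not all kininogens and alpha-1-acid glycoprotein (Orm1) are the classic strongly inducible proteins, whereas C-reactive protein (Crp) is abundant in plasma without inflammation.

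The study asked how the liver responds to a brain injury and to 2 drugs given after it. Punches of the median liver lobe of 50 male Sprague Dawley rats, about 3 months old, gave RNA for Affymetrix Rat Gene 1.0 ST arrays, with 1 array per rat and 5 rats in each of 10 groups. One group was intact sham rats. In the other 9, rats had a controlled cortical impact, a contusion of the exposed brain, and received saline vehicle, erythropoietin (EPO, given as Procrit at 2500 IU/kg) or anakinra (Kineret, a recombinant IL-1 receptor antagonist, 100 mg/kg), and liver was taken after 24 h, 72 h or 7 days. No time and no vehicle is named for sham, and these 5 arrays were the reference for every time, so injury, vehicle injection and time of collection cannot be told apart in the comparisons with sham. All comparisons with sham share the 5 sham arrays, and at each time the comparisons of the drugs with vehicle share the 5 vehicle arrays. A punch holds every cell type of the liver, and in such tissue fewer cells of a type and less RNA per cell cannot be told apart.

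All values are log2 expression values from robust multi-array averaging (RMA), so a difference of 1 is a 2-fold difference. Array medians were between 6.66 and 6.89. The 5 arrays with the smallest spread over all probes had an SD of at most 2.04, against at least 2.06 in the others. The number 5 was a choice, with no clear gap in SD. The 5 were vehicle 24 h array 3, vehicle 72 h arrays 2 and 5, vehicle 7 days array 3 and EPO 7 days array 3. These are called narrow arrays below, and 4 of the 5 were vehicle arrays. The liver label was borne out by hepatocyte markers, whose mean level was 12.93 to 13.07 in sham and 12.87 to 12.99 in vehicle at 24 h, with 0 of 11 passing the test in that comparison. Tests were moderated tests in limma over all 50 arrays, with Benjamini-Hochberg adjustment over all 14506 genes and an adjusted p of 0.05 as the threshold.

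Most of the genes were near the top of the measured range. By the mean over all arrays, 18 of the 33 were among the 145 genes that make up the highest 1%. The highest single value in the data was 14.24. Complement C3, the central complement component, had the highest mean of the set at 13.65, ahead of the haem-binding protein hemopexin (Hpx, 13.51) and the protease inhibitor Serpina3n (13.49). The lowest means were those of Osmr at 6.82, the plasma glycoprotein gene Lrg1 at 7.42, Cebpd at 7.70 and Socs3 at 7.73. These are intensities of different probes and give no order of abundance between genes. The genes also differed in how far they varied over the 50 arrays. C3 spanned 0.19, the immunoglobulin transporter Pigr 0.22 and Crp 0.31, whereas Osmr spanned 3.02 and A2m 4.97.

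At 24 h after injury, 8 of the 33 genes were higher in vehicle-treated rats than in sham and 0 were lower. Of all genes, 54 were higher (0.372%). The 8 were the lipopolysaccharide-binding protein Lbp, the fibrinogen-like hepatokine Fgl1, kininogen Kng1, haptoglobin (Hp, which binds free haemoglobin), ceruloplasmin (Cp, the copper-carrying ferroxidase), the inter-alpha-trypsin inhibitor chain Itih4, the complement regulator C4bpa and the transcription factor Stat3. The differences ran from 1.91-fold for Lbp to 1.18-fold for Itih4. Of the 33 genes, 28 had a positive difference, with a median of 0.17 against 0.04 over all genes. Without adjustment, 16 members, all higher, had p under 0.05, beside 2310 of all genes (15.9%). Here and below, such counts over all genes without adjustment hold both directions.

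Lbp (probe 10841693) carries bacterial lipopolysaccharide to CD14. Its values were 11.47, 11.42, 11.43, 11.70 and 11.57 in sham and 12.34, 12.53, 12.39, 12.45 and 12.53 in vehicle at 24 h. Every vehicle array lay above every sham array, with a wide gap between the groups. The difference was 0.93 (SE 0.20, 95% interval 0.53 to 1.34, adjusted p = 0.0122). Fgl1 (probe 10788365) read 12.54, 11.87, 11.87, 12.04 and 12.44 in sham and 12.75, 12.96, 12.70, 12.99 and 12.96 in vehicle. The groups did not overlap, although sham arrays 1 and 5 came close to the vehicle arrays. Its difference was 0.72 (SE 0.13, 1.65-fold, adjusted p = 0.00265). Kng1, the precursor of the kinins, read 12.90, 12.59, 12.65, 12.69 and 12.94 in sham and 13.27, 13.34, 13.08, 13.19 and 13.27 in vehicle. Again the 5 vehicle arrays were the 5 higher ones. The difference was 0.47 (SE 0.10, 1.39-fold, adjusted p = 0.00932). Rats carry several closely related kininogen genes, so this probe may read more than 1 of them.

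The other 4 plasma proteins differed by less. Hp read 13.13, 13.00, 13.11, 13.06 and 13.22 in sham and 13.39, 13.32, 13.36, 13.36 and 13.43 in vehicle, a difference of 0.27 (SE 0.06, adjusted p = 0.0261). Cp read 12.65, 12.42, 12.63, 12.65 and 12.68 in sham and 12.86, 12.95, 12.93, 12.98 and 12.98 in vehicle, a difference of 0.33 (SE 0.08, adjusted p = 0.0196). The vehicle arrays lay in a narrow band above all sham arrays for both genes. C4bpa, which binds C4b and limits the classical complement pathway, read 13.03, 12.75, 12.76, 12.84 and 12.86 in sham and 13.29, 13.27, 13.08, 13.34 and 13.19 in vehicle, a difference of 0.39 (adjusted p = 0.0201). Itih4 read 13.05, 12.85, 12.88, 12.92 and 13.05 in sham and 13.29, 13.14, 13.12, 13.19 and 13.24 in vehicle, a difference of 0.24 (adjusted p = 0.0425). Both pairs of groups were again separate, with sham array 1 the closest to the vehicle arrays for C4bpa.

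These 4 smaller differences depended on the arrays included. Fitted on the vehicle and sham arrays alone, Hp, Cp, Itih4 and C4bpa did not pass and 4 members remained called. The count was also 4 without vehicle array 4 or without sham array 2, and 5 without sham array 3. Lbp, Fgl1, Kng1 and Stat3 passed in every alternative fit and without any single array. The highest adjusted p of Lbp with an array left out was 0.0396.

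Of the signalling genes, Stat3 read 10.72, 10.32, 10.59, 10.46 and 10.78 in sham and 11.30, 11.32, 11.16, 11.41 and 11.07 in vehicle at 24 h. The 5 vehicle arrays were all higher, by 0.68 in the mean (SE 0.14, 95% interval 0.40 to 0.96, 1.60-fold, adjusted p = 0.00732). Stat3 is itself a target of STAT3. Socs3 read 7.38, 6.95, 7.10, 6.98 and 7.59 in sham and 8.39, 8.02, 8.16, 7.61 and 7.61 in vehicle. The vehicle arrays were again the 5 higher ones, but vehicle arrays 4 and 5 lay at the level of sham array 5, and the difference of 0.76 did not pass (adjusted p = 0.0754). The C/EBP factors did not pass either, with a difference of -0.29 for Cebpb and 0.05 for Cebpd. The receptor chains had small differences as well: 0.14 for Il6r, 0.12 for Il6st and 0.24 for Osmr. Il6 itself, the cytokine gene, had group means between 4.11 and 4.35 over the 10 groups, and its lowest adjusted p in any comparison was 0.277. These levels were low, against a median gene mean of 7.23, so a change of Il6 may not have been readable. The kinases Jak1 (group means 11.22 to 11.43) and Jak2 (7.91 to 8.32) and the inhibitor Socs1 (7.34 to 7.71) passed in no comparison.

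**Figure D1:**
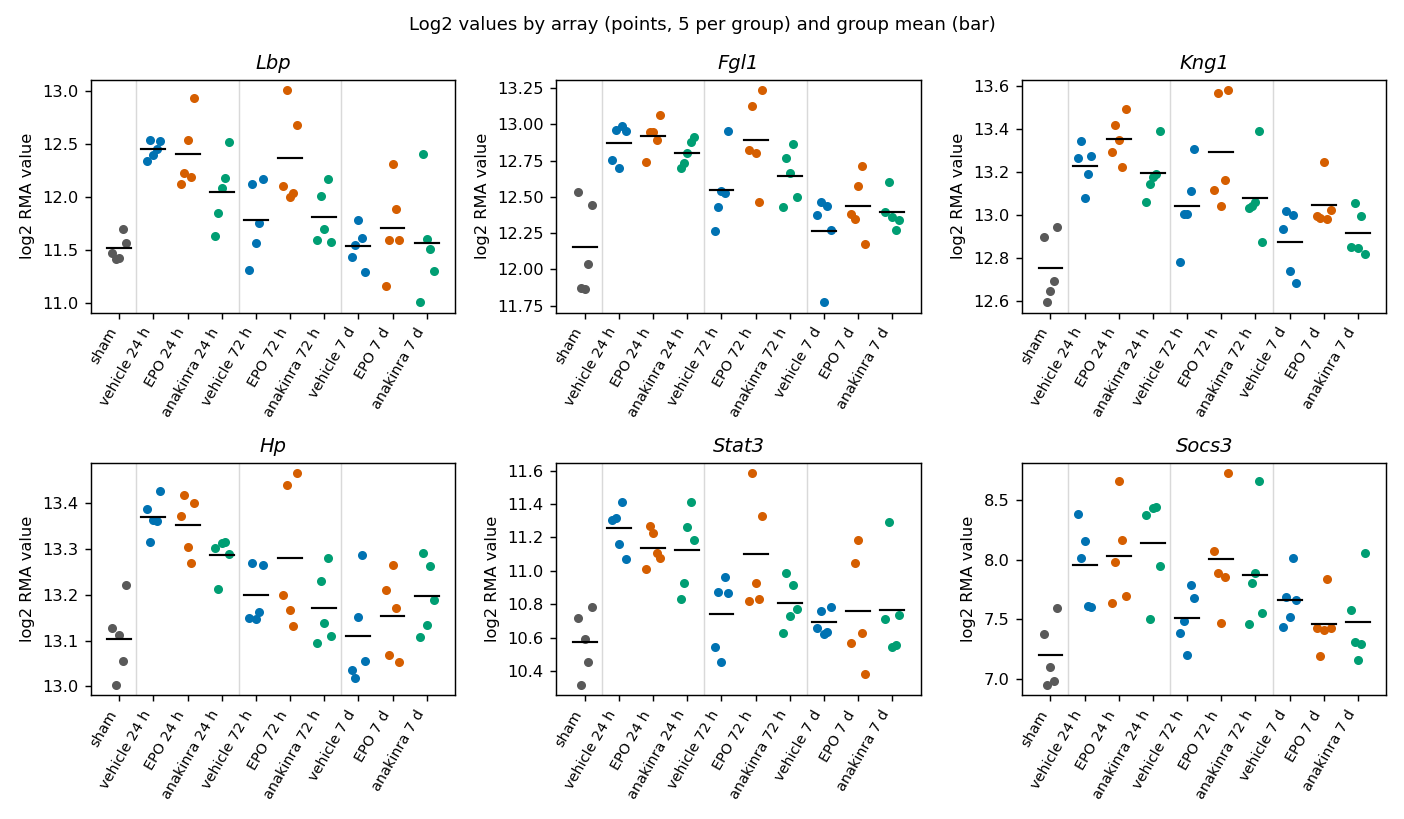
Log2 values (vertical axes) of Lbp, Fgl1, Kng1, Hp, Stat3 and Socs3 in the 10 groups (horizontal axis), with 1 point per array and a bar at the group mean. The vehicle 24 h arrays lie above all 5 sham arrays in all 6 panels, and for Lbp 2 of the EPO 72 h arrays reach 13.00 and 12.68.

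By role, 6 of the 19 acute phase proteins passed at 24 h, with a median difference of 0.18. Of the complement and pattern recognition genes, 1 of 4 passed (median 0.07), as did 1 of the 4 signalling factors (median 0.37). None of the 3 receptor chains (median 0.14) and none of the 3 other inducible genes (median 0.37) passed. Several other members had small differences. For Crp, which in the rat is abundant without inflammation, the difference was 0.03, with an interval from -0.07 to 0.14. For the fibrinogen chains it was 0.15 in Fga, 0.12 in Fgb and 0.11 in Fgg, and for C3 it was 0.09. None of these passed. Nnmt (0.45) and the metallothionein Mt2A (0.37) did not pass, nor did Itih3 (0.17), Hpx (0.08), the pentraxin Apcs (0.07) and Pigr (0.06). On the negative side were Serpina1 (-0.06), the leucine-rich glycoprotein Lrg1 (-0.13), the metalloreductase Steap4 (-0.20) and the lipopolysaccharide receptor Cd14 (-0.24), also without passing. A2m had a mean difference of 0.79, but its interval ran from -0.26 to 1.84 (adjusted p = 0.419).

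More members were separated between the groups than passed the test. In 13 of the 33 genes all 5 vehicle arrays at 24 h lay above all 5 sham arrays, as they did in 217 of all genes (1.5%). Besides the 8 genes that passed, these were Orm1, Itih3, Serpina3n, C3 and Socs3. Orm1 is a carrier of basic drugs in plasma. It read 12.08, 11.90, 12.05, 11.91 and 12.10 in sham and 12.74, 12.39, 12.18, 12.37 and 12.53 in vehicle, and its difference of 0.44 did not pass (adjusted p = 0.273).

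**Figure D2:**
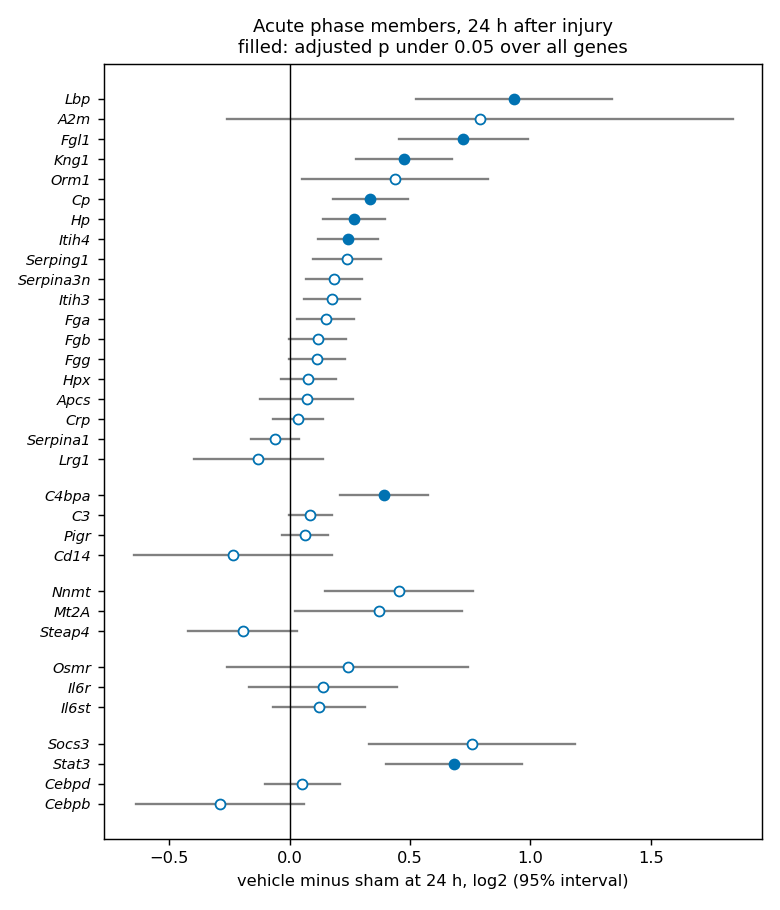
Difference of vehicle from sham at 24 h (horizontal axis, log2, with 95% intervals) for the 33 genes (vertical axis, by role). Filled points passed an adjusted p of 0.05, and they are the 8 genes from Lbp at 0.93 to Itih4 at 0.24. The interval of A2m is the widest, from -0.26 to 1.84, with a spread estimated over all 10 groups.

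Sequences just before the start of transcription were read for the members that the RefSeq promoter table (rat build GRCr8) holds, which were 26 of the 33. A2m, Hp, Fgl1, Serping1, Nnmt, Lbp and Cebpd had no entry. Motifs were searched on both strands in the 250 bases before the start. The STAT motif TTCNNNGAA was in 5 of the 26 members (Fga, Fgb, Itih4, Serpina3n and Steap4) and in 7.67% of the 33469 promoters of the table. The IL-6 response motif CTGGGAA was in 9 of 26 and in 9.56% of all promoters, the C/EBP motif TTGCNNAA in 10 of 26 and in 9.22%, and the NF-kB motif in 1 of 26, Steap4, and in 0.314%. A CTGGGAA match can lie within a STAT match, and it did so in Itih4 and Serpina3n. Windows are shown for 5 members. They were picked by hand from the genes separated from sham in vehicle at 24 h or following Stat3 between animals (below). Others of this kind with a window were Cp, C4bpa, C3 and Fgg, which hold a motif match, and Itih3, Stat3 and Socs3, with none. The 5 windows shown have the motif matches in capitals. They are Kng1 at chr11:91340149-91340398 on the minus strand, and on the plus strand Itih4 at chr16:6086735-6086984, Serpina3n at chr6:129088142-129088391, Orm1 at chr5:81788259-81788508 and Fga at chr2:170671919-170672168, each 5′ to 3′ in the direction of its gene.
Kng1: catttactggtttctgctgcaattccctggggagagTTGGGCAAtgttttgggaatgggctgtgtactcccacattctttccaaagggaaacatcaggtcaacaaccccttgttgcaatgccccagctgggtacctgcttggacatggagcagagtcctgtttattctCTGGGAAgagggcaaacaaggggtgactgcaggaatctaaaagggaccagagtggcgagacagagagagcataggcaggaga
Itih4: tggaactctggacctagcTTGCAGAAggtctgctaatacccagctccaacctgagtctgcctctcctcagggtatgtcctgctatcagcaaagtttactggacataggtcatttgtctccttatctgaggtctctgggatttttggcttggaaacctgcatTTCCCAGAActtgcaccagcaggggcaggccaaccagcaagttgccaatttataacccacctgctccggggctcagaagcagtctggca
Serpina3n: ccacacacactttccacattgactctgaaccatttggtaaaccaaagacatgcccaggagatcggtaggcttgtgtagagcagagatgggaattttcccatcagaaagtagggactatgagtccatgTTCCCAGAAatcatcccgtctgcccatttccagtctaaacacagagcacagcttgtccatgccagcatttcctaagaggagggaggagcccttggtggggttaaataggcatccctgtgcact
Orm1: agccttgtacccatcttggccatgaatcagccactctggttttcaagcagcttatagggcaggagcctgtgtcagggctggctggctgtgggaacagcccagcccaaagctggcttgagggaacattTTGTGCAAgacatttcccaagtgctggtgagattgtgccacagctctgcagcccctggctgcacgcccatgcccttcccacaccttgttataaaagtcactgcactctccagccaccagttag
Fga: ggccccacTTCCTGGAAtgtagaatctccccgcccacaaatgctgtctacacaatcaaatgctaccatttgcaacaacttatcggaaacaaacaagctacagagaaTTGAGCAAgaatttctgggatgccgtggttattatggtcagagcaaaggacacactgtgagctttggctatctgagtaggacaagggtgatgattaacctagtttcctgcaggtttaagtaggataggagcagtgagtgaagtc

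In Kng1 the capitals are a C/EBP match, TTGGGCAA, 214 to 207 bases before the start and CTGGGAA 82 to 76 bases before it. In Itih4 they are a C/EBP match 232 to 225 bases and a STAT match, TTCCCAGAA, 89 to 81 bases before the start. Serpina3n holds the same 9 letters, TTCCCAGAA, 123 to 115 bases before its start. In both, the reverse strand of the first 7 letters is the CTGGGAA motif. The capitals in Orm1 are a C/EBP match 123 to 116 bases before the start. In Fga they are a STAT match, TTCCTGGAA, 242 to 234 bases and a C/EBP match 144 to 137 bases before the start. These matches describe the letters of the windows, and binding was not measured.

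At the later times no member of the vehicle groups passed against sham. At 72 h, 0 of the 33 genes passed, as did 0% of all genes. Without adjustment p was under 0.05 for 6 members, 3 higher and 3 lower, and for 1757 genes (12.1%). The median difference of the members was 0.02 against 0.04 over all genes. Fgl1 had a difference of 0.39 and Kng1 of 0.29 (adjusted p = 0.396 for each). At 7 days 0 members and again 0% of all genes passed, with 1 member (Socs3, 0.46, adjusted p = 0.757) and 946 genes (6.52%) at p under 0.05 without adjustment. The Lbp mean was 11.54 ± 0.19 (SD, n = 5) in vehicle at 7 days, against 11.52 ± 0.12 in sham and 12.45 ± 0.09 in vehicle at 24 h.

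The difference between times was tested directly on the vehicle groups. Lbp was higher at 24 h than at 7 days by 0.91 (SE 0.20), and Fgl1 by 0.61 (SE 0.13), with an adjusted p of 0.0296 for each. They were 2 of 19 genes higher at 24 h (0.131%). The Lbp values at 7 days were 11.43, 11.55, 11.79, 11.61 and 11.30, all well below the 24 h values. For Fgl1 they were 12.37, 12.47, 11.77, 12.44 and 12.27. All 5 lay below the 24 h arrays, and array 3, a narrow array, was the lowest. Without the 5 narrow arrays, or on these groups alone, Fgl1 did not pass. Single arrays mattered for both genes. Lbp did not pass without array 1, 2 or 5 of the 7 days group or array 2, 4 or 5 of the 24 h group (highest adjusted p = 0.103). Fgl1 did not pass without array 3 or 5 of the 7 days group or array 2, 4 or 5 of the 24 h group. The count was thus 1 without array 1, 2 or 3 of the 7 days group and 0 without array 5 of that group or array 2, 4 or 5 of the 24 h group. Stat3 had a difference of 0.56 (adjusted p = 0.0685). Between 24 h and 72 h, 0 members passed (0.0207% of all genes did), although 12 members, all higher at 24 h, had p under 0.05 without adjustment, beside 472 genes (3.25%). Lbp differed there by 0.66 (adjusted p = 0.681).

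In EPO against vehicle at 24 h, 0 members passed (0.0276% of all genes did), and 2 members had p under 0.05 without adjustment, beside 1572 genes (10.8%). For Lbp the difference from vehicle was -0.05 (95% interval -0.46 to 0.36), for Fgl1 0.05 (-0.22 to 0.31) and for Stat3 -0.12 (-0.40 to 0.16). Against sham, EPO at 24 h had 8 members higher and 0 lower, of 41 genes higher overall (0.283%). These were Lbp (0.88, adjusted p = 0.0271), Fgl1 (0.77, adjusted p = 0.00194), Kng1 (0.60, adjusted p = 0.00132), Cp, C4bpa, Itih4, Stat3 (0.56, adjusted p = 0.0494) and Serping1. Cp and Stat3 did not pass when any 1 of the 10 arrays was left out. Leaving out EPO array 5, or either of sham arrays 2 and 3, reduced the count to 2. It was 3 without EPO array 3, 4 without EPO array 2, 5 when sham array 1, 4 or 5 was dropped, and at most 7 otherwise. Array weights gave 17 members (of 404 genes in both directions) and centred and scaled arrays gave 4 (of 37). The neutrophil marker Mmp8 was higher in this comparison too (0.99, adjusted p = 0.00803), as 1 of 12 neutrophil markers, whose mean level was 6.09 to 6.17 with EPO and 5.80 to 5.91 in sham. Its part in the members' differences was not tested.

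Serping1, the inhibitor of C1 and of kallikrein, read 13.02, 13.02, 13.07, 12.83 and 13.01 in EPO at 24 h and 12.83, 12.58, 12.63, 12.63 and 12.71 in sham. EPO array 4 lay just above the highest sham array and the other 4 well above it, and the difference was 0.31 (adjusted p = 0.0246). Serping1 did not pass without EPO array 1, 2, 3 or 5 or without sham array 2, 3 or 4 (highest adjusted p = 0.102). Kng1 read 13.29, 13.42, 13.35, 13.22 and 13.49 with EPO, all above the sham arrays. In 14 members all EPO arrays at 24 h lay above all sham arrays, as in 241 of all genes (1.66%).

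A2m showed the widest spread of the set within groups. Its values in EPO at 24 h were 8.66, 11.44, 9.90, 8.90 and 12.99, against 10.09, 9.29, 8.60, 9.47 and 8.87 in vehicle at 24 h and 8.59, 8.41, 8.74, 8.25 and 8.38 in sham. EPO arrays 2 and 5 stood far above the rest, while EPO array 1 lay within the sham range. The EPO mean was 10.38 ± 1.82 (SD, n = 5) and the difference from sham 1.90 (95% interval 0.85 to 2.95, adjusted p = 0.0950). The difference from vehicle at 24 h was 1.11 (adjusted p = 0.456). A single high array also appeared in anakinra at 24 h (array 5, 10.94), in EPO at 72 h (array 5, 12.10) and in anakinra at 72 h (array 4, 10.16). A2m, the classic rat acute phase protein, passed in no comparison between groups.

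**Figure D3:**
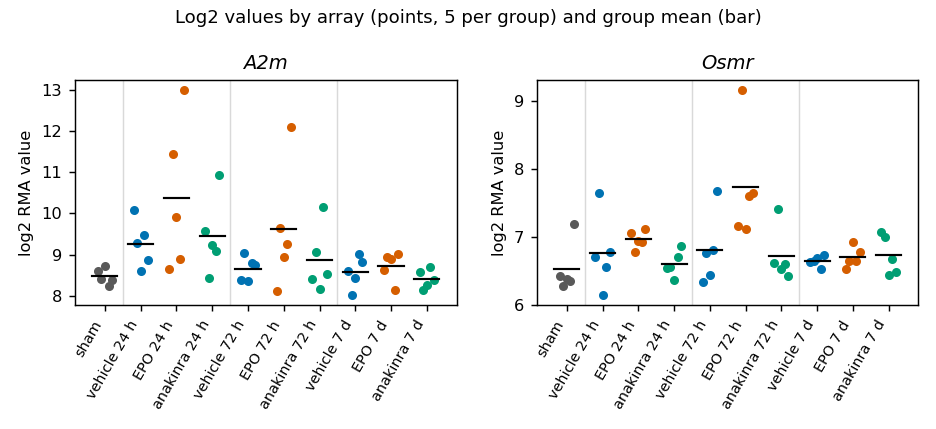
Log2 values (vertical axes) of A2m and Osmr in the 10 groups (horizontal axis), with 1 point per array and a bar at the group mean. Single arrays stand apart, as for A2m at 12.99 in EPO at 24 h and for Osmr at 9.16 in EPO at 72 h.

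In EPO at 72 h, 9 members were higher than in sham and 0 lower, of 398 genes higher overall (2.74%). They were Lbp (0.85, adjusted p = 0.00728), Fgl1 (0.74, adjusted p = 0.000230), Kng1 (0.54, adjusted p = 0.000366), Cp (0.33), C4bpa (0.32), Itih4 (0.28), Osmr (1.21, adjusted p = 0.00142), Socs3 (0.80, adjusted p = 0.0195) and Stat3 (0.53, adjusted p = 0.0207). The Lbp arrays were 12.11, 13.00, 11.999, 12.04 and 12.68, and the Kng1 arrays 13.12, 13.57, 13.04, 13.16 and 13.58. All 5 lay above the sham arrays for both genes, with arrays 2 and 5 the highest. Stat3 read 10.82, 11.58, 10.93, 10.83 and 11.33, again with arrays 2 and 5 the highest and all 5 above sham. Socs3 read 8.08, 7.89, 7.46, 7.86 and 8.73, with array 3 inside the sham range. On EPO 72 h and sham alone 4 members passed, without Cp, Itih4, C4bpa, Osmr and Stat3. Lbp did not pass without EPO array 2 (adjusted p = 0.0669). Stat3 did not pass without EPO array 2 or 5 or without sham array 2 or 4, and Socs3 did not without EPO array 5 or without sham array 2, 3 or 4. C4bpa lost its call when EPO array 2 or 5, or sham array 2, 3 or 4, was dropped. Fgl1, Kng1, Cp, Itih4 and Osmr passed without any single array.

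Markers of other cells also differed from sham in EPO at 72 h, in 11 of 12 erythroid, 8 of 12 neutrophil, 4 of 13 macrophage and 2 of 14 lymphocyte markers, all higher. By the smallest p these were led by Rhag, Slc4a1, Alox15 and Hemgn of erythroid cells, Mmp8, Ngp, S100a9 and Cxcr2 of neutrophils, Cd163, Marco, Lyz2 and Csf1r of macrophages, and Il7r and Cd8a of lymphocytes. Of the 11 hepatocyte markers, Ass1 was lower (-0.26). Their part in the differences of the members was not tested.

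The test of EPO against vehicle at 72 h called 1 member, Osmr, the oncostatin M receptor chain, of 316 genes higher (2.18%). Osmr read 7.16, 9.16, 7.11, 7.60 and 7.65 with EPO, 6.34, 6.76, 6.43, 6.80 and 7.68 with vehicle and 6.43, 6.27, 6.38, 6.36 and 7.20 in sham. EPO array 2 stood apart, and vehicle array 5 lay above 4 of the 5 EPO arrays. The difference was 0.94 (SE 0.25, 95% interval 0.43 to 1.44, 1.91-fold, adjusted p = 0.0248). Without EPO array 2 it was 0.58 and did not pass (adjusted p = 0.191), nor did it pass without vehicle array 1, 2 or 3, or on the 2 groups alone. The count of members was 2 when array 4 or 5 of either group was dropped, while the count over all genes in both directions, 395 with all arrays, was between 264 and 785. Without EPO array 1 it was 3, and 1520 genes passed. Il6st, the gp130 chain, read 11.99, 11.998, 11.92, 11.68 and 11.96 with EPO and 11.42, 11.47, 11.67, 11.60 and 11.81 with vehicle. All but EPO array 4 lay above the vehicle arrays, and the difference of 0.31 did not pass (adjusted p = 0.0627). Lrg1 had 0.45 (adjusted p = 0.0510).

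Most other members had a positive difference at 72 h that did not pass. Without adjustment, 12 members had p under 0.05, all higher with EPO, beside 2908 genes (20.0%). Of the 33 differences, 31 were positive, with a median of 0.12 against -0.03 over all genes. Lbp differed by 0.58 (adjusted p = 0.111), Stat3 by 0.36 (adjusted p = 0.150) and Socs3 by 0.50 (adjusted p = 0.187). Without the 5 narrow arrays, 2 of which were vehicle arrays at this time, 3 members passed: Osmr (1.21, adjusted p = 0.00595), Lbp (0.82, adjusted p = 0.0339) and Cp (0.31, adjusted p = 0.0417). In that fit 282 of all genes passed in both directions, against 395 with all arrays. The 5 EPO animals also differed among themselves: in 22 of the 33 members, arrays 2 and 5 were the 2 highest of the group. Members were correlated within groups (r of deviations above 0.5 in 118 of 528 pairs), so these are not 22 separate observations. The share over all genes was not counted.

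Markers of other cells moved with EPO at 72 h. The mean level of the Kupffer cell and macrophage markers was 9.30 to 9.62 in EPO and 8.45 to 9.26 in vehicle at 72 h, and 9 of 13 passed. Of the neutrophil markers 6 of 12 passed (6.21 to 7.04 against 5.87 to 6.18), and of the erythroid markers 11 of 12 (8.58 to 10.06 against 6.73 to 7.99). Of the lymphocyte markers 3 of 14 passed. By the smallest p the leading markers were Cd163 (0.78), Vsig4 (0.76), Marco (0.64) and Cd68 (0.63) of macrophages, Mmp8 (2.23), Ngp (1.84), S100a9 (1.37) and S100a8 (0.71) of neutrophils, Il7r (0.97), Gzma (0.61) and Nkg7 (0.53) of lymphocytes, and Rhag (2.002), Slc4a1 (2.89), Epb42 (1.76) and Alox15 (3.84) of erythroid cells. Of the 12 pancreas, muscle and adipose markers Pnlip was lower (-0.33). Their part in the difference of Osmr and the other members was not tested. At 24 h, in vehicle against sham, no marker of these cells passed: the macrophage markers were at 8.52 to 8.96 in vehicle and 8.87 to 9.34 in sham, and the neutrophil markers at 5.81 to 6.20 and 5.80 to 5.91.

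At 7 days EPO called 0 members against vehicle (0.365% of all genes passed), with 0 members and 721 genes (4.97%) at p under 0.05 without adjustment. Against sham it also called 0 members (2.86% of all genes), with 6 of 33 at p under 0.05 without adjustment, beside 2657 genes (18.3%). Kng1 kept a difference from sham of 0.29 with all 5 arrays above the sham arrays (adjusted p = 0.0950). Without EPO 7 days array 2, 1 member passed against sham. The average of EPO over the 3 times differed from that of vehicle in 0 members (2.41% of all genes), with 8 members and 2969 genes (20.5%) at p under 0.05 without adjustment, and with Kng1 at 0.18 (adjusted p = 0.0740). That count was 2 without EPO 72 h array 1 and 1 without EPO 72 h array 3 or vehicle 72 h array 5. The test of whether the EPO difference itself changed between times called 0 members (0.214% of all genes), with Lrg1, Il6st and Osmr among 1228 genes (8.47%) at p under 0.05 without adjustment.

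Anakinra blocks the IL-1 receptor, and its comparison with vehicle asks whether the induction after injury differed under it. At 24 h, 0 members and 0% of all genes passed, with 2 members, both lower, and 616 genes (4.25%) at p under 0.05 without adjustment. Lbp read 11.64, 11.85, 12.08, 12.18 and 12.51 with anakinra. Only array 5 reached the vehicle range and array 1 lay within the sham range. The difference from vehicle was -0.40 (95% interval -0.80 to 0.01, adjusted p = 0.901). For Fgl1 it was -0.07 (-0.33 to 0.20), for Kng1 -0.04 (-0.24 to 0.16), for Stat3 -0.13 (-0.41 to 0.15) and for Socs3 0.19 (-0.24 to 0.61). Nnmt, the nicotinamide methyltransferase, was at 9.40, 9.83, 10.35, 9.87 and 9.73 with anakinra and at 10.42, 10.34, 10.15, 10.11 and 10.55 with vehicle. Array 3 was the single anakinra array within the vehicle range, and the difference of -0.48 did not pass (adjusted p = 0.901).

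Against sham, anakinra at 24 h called 3 members, all higher, of 18 genes higher (0.124%). They were Fgl1 (0.65, adjusted p = 0.0244), Kng1 (0.44, adjusted p = 0.0410) and Socs3 (0.94, adjusted p = 0.0410). The Fgl1 arrays were 12.70, 12.73, 12.80, 12.88 and 12.92 and the Kng1 arrays 13.06, 13.15, 13.17, 13.19 and 13.39. Both sets lay above all sham arrays. Socs3 read 8.38, 7.50, 8.43, 8.45 and 7.95, with array 2 inside the sham range. Leaving out anakinra array 4 or 5, or sham array 2 or 3, left 0 members called, and leaving out anakinra array 1 or 3, or sham array 4 or 5, left 1. Lbp, with a difference from sham of 0.53, did not pass (adjusted p = 0.467), nor did Stat3, with 0.55 (adjusted p = 0.0840). In 9 members all anakinra arrays lay above all sham arrays, as in 179 of all genes (1.23%).

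At the later times anakinra called 0 members in each comparison. Against vehicle, 0% of all genes passed at 72 h and 0.0138% at 7 days, and 1 and 3 members had p under 0.05 without adjustment, beside 1546 (10.7%) and 1106 genes (7.62%). Against sham, 0.11% of all genes passed at 72 h and 1.83% at 7 days, and 7 and 3 members had p under 0.05 without adjustment, beside 839 (5.78%) and 2047 genes (14.1%). Averaged over the 3 times, anakinra against vehicle called 0 members (0.0551% of all genes), with 3 members, all lower, and 3107 genes (21.4%) at p under 0.05 without adjustment. One of them was Mt2A, a zinc-binding protein, at -0.35 (adjusted p = 0.126). The test of whether the anakinra difference itself changed between times called 0 members and 0% of all genes. Lrg1 and Nnmt, with 402 genes in all (2.77%), had p under 0.05 there without adjustment.

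Cebpb had a negative difference from sham in all 9 injured groups. All of these use the same sham arrays, so they are not 9 separate observations. Steap4 too had its highest group mean in sham (9.91). Cebpb read 8.01, 8.18, 8.47, 7.82 and 8.06 in sham and 8.06, 7.67, 7.18, 6.93 and 7.68 in anakinra at 7 days. All but anakinra array 1 lay below the sham arrays. The difference was -0.60 (SE 0.17) and missed the threshold (adjusted p = 0.0531). Without the 5 narrow arrays it passed (adjusted p = 0.0133), and without anakinra array 1 or sham array 4 the count of members in this comparison was 1. In EPO at 7 days the difference from sham was -0.55 (adjusted p = 0.0681) and in vehicle at 7 days -0.33.

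**Figure D4:**
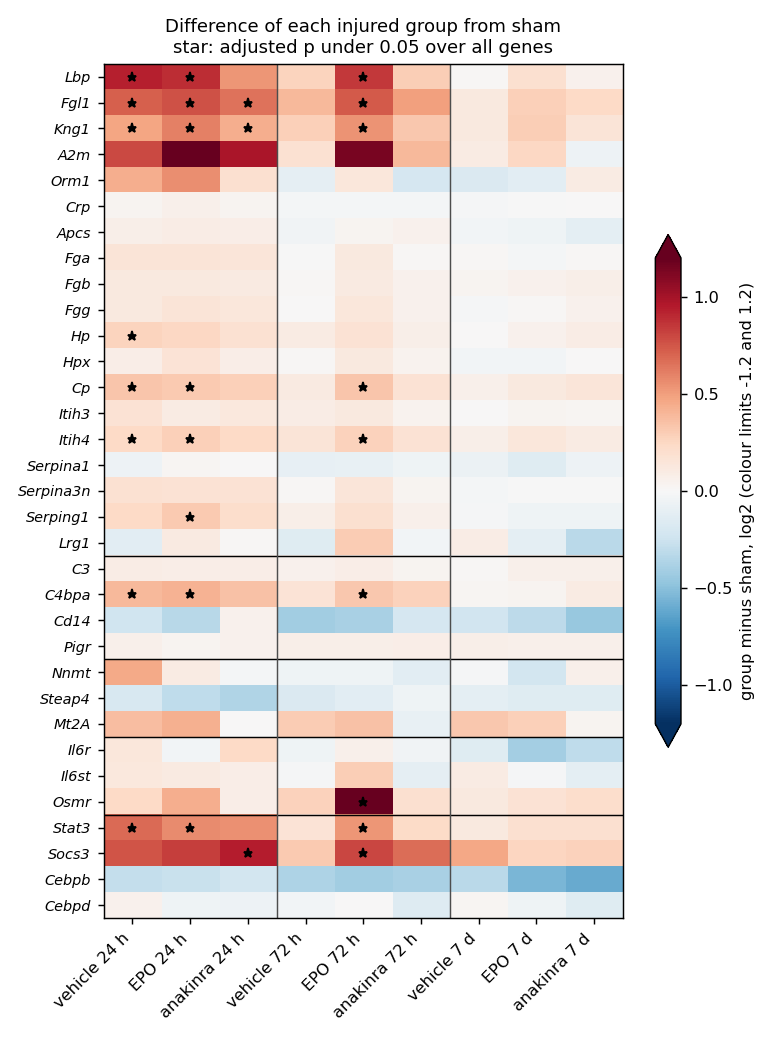
Difference of each of the 9 injured groups (columns) from sham for the 33 genes (rows), as colour on a log2 scale limited to -1.2 and 1.2, with a star where the adjusted p was under 0.05. Stars lie in the 24 h columns, 8 for vehicle, 8 for EPO and 3 for anakinra, and in the EPO 72 h column, which has 9.

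Over all 10 groups, 13 of the 33 members varied in the F test, as did 823 of all genes (5.67%). Fgl1 had the largest F of the set, 8.63, followed by Kng1 with 7.46 (adjusted p = 0.000171), Serping1 with 7.03 and Lbp with 6.74. C4bpa, Stat3, Cp, Serpina3n, Itih4, Hp, Socs3, Osmr and Orm1 made up the rest. Serpina3n and Orm1 passed here and in no single comparison. A2m did not pass (adjusted p = 0.101). Neither here nor in any comparison of groups did Crp, Apcs, Fga, Fgb, Fgg, Hpx, Itih3, Serpina1, Lrg1, C3, Cd14, Pigr, Nnmt, Steap4, Mt2A, Il6r, Il6st, Cebpb or Cebpd pass.

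Animals of the same group also differed in Stat3, and some members followed it. The slope of each gene on Stat3 within groups was tested over the 50 arrays, with a mean for each group in the model. It was positive and passed in 6 of 32 members, as in 19 of all genes (0.131%). These were Lbp (0.95 log2 per log2 of Stat3, SE 0.17, adjusted p = 0.0036), Orm1 (0.90, SE 0.16, adjusted p = 0.0036), Cp (0.34, SE 0.07, adjusted p = 0.01), Fgg (0.25, SE 0.05, adjusted p = 0.01), Serpina3n (0.25, adjusted p = 0.0157) and Fga (0.25, adjusted p = 0.0175). The 2 fibrinogen chains are neighbours in the genome and are made as parts of 1 protein. Without adjustment 18 members, all with a positive slope, had p under 0.05, beside 802 genes (5.53%). The median slope was 0.20 over the members and -0.01 over all genes. For Itih3 the slope was 0.03 and for the alpha-1-antitrypsin gene Serpina1 it was 0.02.

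In anakinra at 7 days Stat3 read 10.71, 11.29, 10.54, 10.56 and 10.74, and Orm1 read 11.99, 12.72, 11.84, 11.94 and 12.03. Array 2 was the highest for both genes, and for Lbp too, with 12.41 against at most 11.60 in the other 4. Fgg in EPO at 72 h read 13.30, 13.53, 13.39, 13.30 and 13.55, with arrays 2 and 5 the highest, as they were for Stat3 (11.58 and 11.33, against 10.82 to 10.93). The 2 arrays farthest from the median of Stat3 over all arrays were EPO 72 h array 2 (11.58) and vehicle 24 h array 4 (11.41). Without them Lbp (0.90) and Orm1 (0.87) passed, with an adjusted p of 0.0334 each, and the other 4 did not. That fit kept anakinra 7 days array 2, and it did not go by the distance from the group mean. With only anakinra 7 days array 2 left out, 1 member passed, Orm1, and Lbp did not (adjusted p = 0.051). The count was 10 without EPO 7 days array 2. Of the 6 genes all but Lbp had a promoter window, and of these Fga and Serpina3n hold the STAT motif, as printed above.

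**Figure D5:**
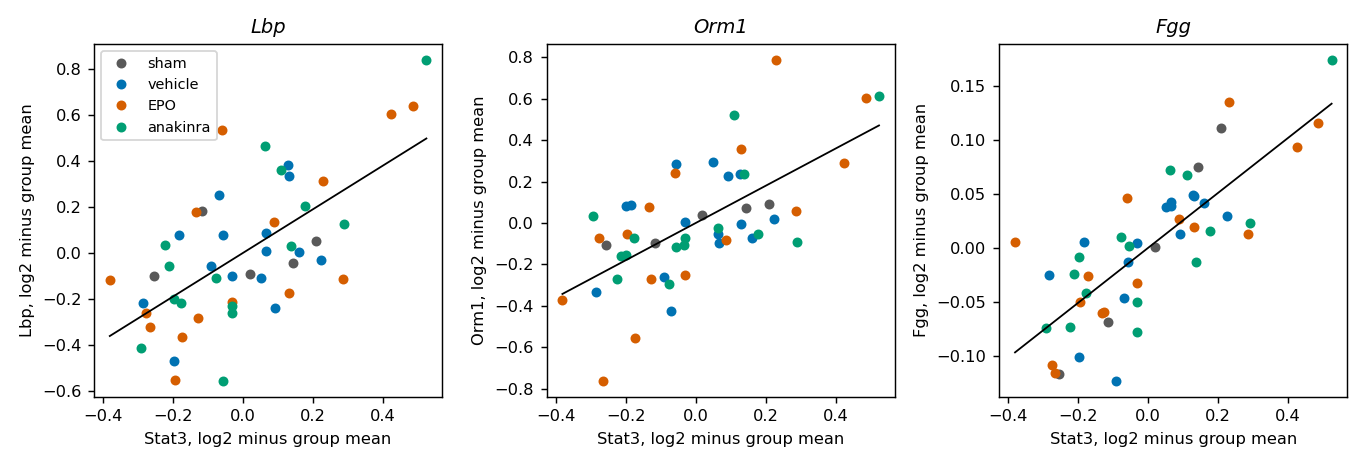
Deviation of each array from its group mean (log2) in Stat3 (horizontal axes) and in members of the set (vertical axes), with 1 point per array, coloured by treatment, and a line of the fitted slope. The lines rise, with a slope of 0.95 for Lbp and 0.90 for Orm1, and anakinra 7 days array 2 is among the points farthest to the right.

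Other genes of the same pathways were taken from fixed lists. In vehicle against sham at 24 h, 4 of 32 further positive acute phase genes were higher and 0 lower: the zinc transporter Slc39a14 (0.51, adjusted p = 0.00265), Serpina10 (0.52), the complement component C8a (0.37) and fibronectin (Fn1, 0.27). Of 31 further IL-6 family and JAK-STAT genes, Stat2 was higher (0.37). Of 19 IL-1, TNF and NF-kB genes, the signalling IL-1 receptor Il1r1 was higher, by 0.93 (adjusted p = 0.00192), with 8.58 to 8.75 in sham and 9.38 to 9.81 in vehicle, which did not overlap. Of 19 negative acute phase genes and 14 glucocorticoid response genes, 0 passed, with medians of -0.08 and -0.20. In EPO against vehicle at 72 h, 2 of the 31 JAK-STAT genes were higher, the leukaemia inhibitory factor receptor Lifr (0.57, adjusted p = 0.000628) and the kinase Pim1 (0.77, adjusted p = 0.00164). Of the 32 positive acute phase genes 1 was higher, the haem oxygenase Hmox1 (0.84, adjusted p = 0.000752), and 1 lower, Hamp. Of the 19 IL-1, TNF and NF-kB genes the chemokine Ccl2 was higher (0.69, adjusted p = 0.0182), and of the 14 glucocorticoid response genes Fkbp5 (0.48, adjusted p = 0.0248). Hamp, which encodes the iron hormone hepcidin and is itself a target of IL-6 and STAT3, had 8.21 ± 0.88 with EPO and 12.01 ± 1.45 with vehicle there (SD, n = 5). The highest EPO array, 9.16, lay below the lowest vehicle array, 9.67, and the difference was -3.80 (adjusted p = 4.67e-08).

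In the comparisons with sham the same lists gave these genes. In EPO at 24 h, 4 of the 32 positive acute phase genes were higher, led by the kininogen Kng2 (0.45), C8a (0.35) and Serpina10 (0.47), and 1 was lower, Hamp (-1.90, adjusted p = 0.0279). In EPO at 72 h, 7 were higher, led by C8a (0.37), Fn1 (0.27) and Hmox1 (0.69), and Hamp was lower (-4.69). There, 3 of the 31 JAK-STAT genes were higher, Lifr (0.54), Pim1 (0.78) and the transcription factor Junb (0.73), and 3 of the 19 IL-1, TNF and NF-kB genes, Il1r1 (0.74), Cxcl1 (1.198) and Ccl2 (0.62). Of the glucocorticoid response genes Fkbp5 was higher (0.53) and Angptl4 lower (-1.12). In EPO at 7 days Hamp was lower (-5.59), as were the negative acute phase genes Apoa4 (-0.64) and Apoa1 (-0.61) and the glucocorticoid receptor Nr3c1 (-0.64). Of the 14 lymphocyte markers only Cd4 was higher there (0.64), and which cells it came from was not tested. Of the erythroid markers 10 of 12 were higher, led by Alox15, Slc4a1, Hemgn and Rhd. In anakinra at 24 h the positive acute phase genes Slc39a14 (0.45), the coagulation factor gene F5 (0.39) and Fn1 (0.27) were higher, as were Il1r1 (0.69, adjusted p = 0.0472) and Fkbp5 (0.64). At 72 h Angptl4 was lower with anakinra (-1.65), and at 7 days C8a (0.28), Fn1 (0.22), Il1r1 (0.62) and the STAT inhibitor Pias3 (0.35) were higher and Angptl4 (-1.44) and Socs2 (-1.71) lower.

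Between vehicle at 24 h and at 7 days, Slc39a14 was higher at 24 h (0.43). In EPO against vehicle at 7 days, Hamp was lower (-5.66), and averaged over the times Lifr (0.29), Pim1 (0.37), Stat5b (0.21), Hmox1 (0.40), Il1a (0.46) and Ccl2 (0.37) were higher and Hamp lower (-3.75). At 7 days 9 of 12 erythroid markers were higher, led by Alox15, Rhd, Slc4a1 and Hemgn. In the average 10 were, led by Alox15, Slc4a1, Rhag and Ahsp, beside 7 of 13 macrophage markers, led by Vsig4, Cd68, Marco and Csf1r. The neutrophil markers Mmp8, Ngp and S100a9 and the lymphocyte markers Nkg7, Il7r and Gzma were higher in the average too.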

How the data were processed

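The data are 50 Affymetrix Rat Gene 1.0 ST arrays of rat liver RNA. The deposited values are log2 values made by the authors with RMA in oligo, per the submitters' processing notes; their versions were not given in the sources used here. From the 29214 probes, 15310 carry 1 gene symbol, 323 several and 13581 none, per the annotation given. The probe with the highest mean stood for each of 14506 genes. Kng1 and Mt2A have 2 probes. Precision is limited by the number of arrays.

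Groups were taken from the labels, and each array is a separate rat as far as the labels say. A model with a mean for each of 10 groups was fitted with limma 3.58.1 in R 4.3.3 (lmFit, eBayes, 40 residual degrees of freedom). It gave 17 comparisons of groups, 2 averaged ones, 3 F tests and a slope on Stat3, each with Benjamini-Hochberg adjustment over all genes. The code was tested on simulated data. The members, the other gene lists and the tests were chosen with earlier results of these data known. All members were described; those with an adjusted p under 0.05 got their values. From each other list up to 4 passing genes with the smallest p in a comparison were named, plus Il6, Il1r1, Hamp, Jak1, Jak2, Socs1 and Lifr. The alternatives were a replicate block, array weights, a robust trend, only the groups compared, the mean of all probes, quantile normalization once more, centred and scaled arrays, genes at or above the median level, no narrow arrays and each array left out. Motifs were searched in the RefSeq promoter table (GRCr8).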

Additional observations from a re-analysis of the deposited data

Results flagged for a closer look

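In 25 of 330 sets of 5 arrays of a member (7.58%), 1 array stood apart from the other 4 by Dixon's test, which chance gives in about 1 of 20. Anakinra 7 days array 2 was high in Orm1 (12.72, others 11.84 to 12.03), Stat3 (11.29, others 10.54 to 10.74) and Hpx (13.62, others 13.40 to 13.46). EPO 72 h array 2 was high in Osmr (9.16, others 7.11 to 7.65) and low in Cebpb (7.24, others 7.73 to 7.88). The narrow array 3 of vehicle at 7 days was low in Fgl1 (11.77, others 12.27 to 12.47) and C4bpa (12.48, others 12.96 to 12.99). The narrow array 3 of vehicle at 24 h was low in Fgg (13.27, others 13.40 to 13.43) and Hpx (13.41, others 13.55 to 13.61), and that of EPO at 7 days was high in Kng1 (13.25, others 12.98 to 13.02).

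Apcs, the pentraxin serum amyloid P, had 1 low array in 4 groups: 12.16 in EPO at 24 h, 12.07 in EPO at 72 h, 12.05 in EPO at 7 days and 12.16 in anakinra at 24 h. The others of those groups lay between 12.33 and 12.58. Osmr had 1 high array in sham (7.20, others 6.27 to 6.43) and in anakinra at 72 h (7.41, others 6.42 to 6.62). Anakinra 72 h array 4 was high in Itih4 (13.25) and low in Pigr (13.07). Single low arrays were seen in Hp in anakinra at 24 h (13.21), Hpx in EPO at 7 days (13.35), Cp in sham (12.42), Serping1 in EPO at 24 h (12.83), Steap4 in vehicle at 7 days (9.45) and Il6st in EPO at 72 h (11.68), and a high one in Mt2A in EPO at 24 h (13.85).

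The difference of vehicle from sham was also flagged as differing between 24 h and 7 days in Fgl1, by 0.61, and in Lbp, by 0.91 on the log2 scale (limma, adjusted p = 0.0296 each). Because the same sham arrays serve both times, this is the comparison of the vehicle groups given above and not a further result. Both calls were lost when certain single arrays were left out.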

How the results depend on the processing

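The counts of members that passed kept within 1.5 times their value under the alternatives unless given here, and no result changed its direction. Fitted on only the groups compared, vehicle against sham at 24 h gave 4 in place of 8, EPO against vehicle at 72 h 0 in place of 1, EPO against sham at 72 h 4 in place of 9 and at 7 days 1 in place of 0, anakinra against sham at 24 h 0 in place of 3 and at 7 days 1 in place of 0, and vehicle at 24 h against 7 days 1 in place of 2. Array weights gave 2 for EPO against vehicle at 72 h, 17 in place of 8 for EPO against sham at 24 h and 2 at 7 days, 11, 4 and 1 for anakinra against sham at 24 h, 72 h and 7 days, 7 for vehicle at 24 h against 7 days and 22 in place of 13 for the F test over all groups. The robust trend gave 2 for EPO against vehicle at 72 h. Centred and scaled arrays gave 2 for EPO against vehicle at 72 h, 4 for EPO against sham at 24 h, 1 for anakinra against sham at 24 h and 11 in place of 6 for the slope on Stat3. With genes at or above the median level, which leaves Osmr out, EPO against vehicle at 72 h gave 0, EPO against sham at 7 days 2, anakinra against sham at 7 days 1, vehicle at 24 h against 7 days 5 and the slope 10. Quantile normalization once more gave 5 for vehicle at 24 h against 7 days and 10 for the slope. Without the 5 narrow arrays, EPO against vehicle at 72 h gave 3, anakinra against sham at 7 days 1 and vehicle at 24 h against 7 days 1. The slope gave 2 without the 2 arrays farthest from the overall median of Stat3, and 10 with the array SD as a covariate, an alternative chosen after seeing the data. The causes were not tested.

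With each array left out in turn, the counts ran from 4 to 8 for vehicle against sham at 24 h, 0 to 3 for EPO against vehicle at 72 h, 2 to 7, 6 to 10 and 0 to 1 for EPO against sham at 24 h, 72 h and 7 days, 0 to 3 and 0 to 1 for anakinra against sham at 24 h and 7 days, 0 to 3 for vehicle at 24 h against 7 days, 0 to 2 for EPO averaged over times, 12 to 16 for the F test over all groups and 1 to 10 for the slope. The other counts stayed at 0.

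The replicate numbers are shared by the groups but do not pair the rats: over 225 pairs of arrays with the same number, the median correlation of deviations was -0.007, against -0.011 for other numbers, and 78 were above 0.1. With the number as a block, anakinra against sham at 7 days gave 1 member and the slope gave 2, and the other counts stayed within 1.5 times. The 18 members in the highest 1% of genes by mean level lay close to the highest value of the arrays, 14.24, and the part of this in their small differences was not tested.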

Other observations

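Some arrays were extreme within their group in many members at once. The share over all genes was not counted, and members were correlated within groups. Sham array 2 was the lowest of its group in 19 of the 33 members and vehicle 24 h array 3, a narrow array, in 16. Anakinra 72 h array 4 was the highest of its group in 21 members, anakinra 7 days array 2 in 16 and EPO 7 days array 3, a narrow array, in 16. Besides the members, 13 genes passed with a positive slope on Stat3 within groups and 2 with a negative one, among them the TNF receptor Tnfrsf1a (0.65, adjusted p = 2.95e-05), the terminal complement component C9 (0.39), the clock gene Per2 (-0.80) and the sulphate transporter Slc13a4 (-0.87). Per2 and Slc13a4 are on none of the gene lists and were chosen after their values were seen.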
